A study of Homo sapiens with 4 samples.

Results

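The 10 genes described here build or govern the contractile actin cytoskeleton: the small GTPases RND2 and RND3, the kinases ROCK1 and ROCK2, the heavy chains of nonmuscle myosin II (MYH9, MYH10 and MYH14) and the tensins TNS1, TNS2 and TNS3. They are 10 of the 22637 genes in the count table, taken by symbol, and all 10 had a row. The set was chosen by measured values of these same libraries: RND3, MYH14 and TNS1 were picked because they were higher in both resistant lines, and the other 7 were added as relatives or partners. The ratios of RND3, MYH14 and TNS1 in the resistant lines are therefore a description and carry no weight of their own.

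Stranded mRNA libraries came from 4 lines of prostate cancer, and each line gave 1 library. LNCaP, from a castration-sensitive prostate adenocarcinoma, and C4-2B, a castration-resistant line of the LNCaP lineage, were the parental lines. LN-OlapR and 2B-OlapR were obtained from LNCaP and C4-2B, respectively, by about a year of culture in rising doses of olaparib, an inhibitor of the DNA repair enzyme PARP. Each is a single line, kept in olaparib between experiments, and a selected line can differ from its parent in more than its response to the drug. For sequencing, all 4 lines were labelled untreated and were plated without olaparib, for 48 h according to the deposited design. The published methods give a longer time, so the time in culture before RNA isolation is uncertain. The LN pair below is LN-OlapR against LNCaP and the 2B pair is 2B-OlapR against C4-2B. With 1 library per line no spread between cultures could be measured, so no test is given. The 95% intervals come from the counts alone, cover counting error only, and leave out culture, selection and library preparation.

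Contractile force in nonmuscle cells comes from myosin II filaments pulling on actin. RhoA in its GTP-bound state activates ROCK1 and ROCK2, which raise phosphorylation of the myosin regulatory light chain directly and by inhibiting its phosphatase. RND3, also called RhoE, hardly hydrolyses GTP and works against this axis by binding ROCK1 and by recruiting GTPase-activating proteins that switch RhoA off. Tensins sit where actin meets integrins at focal and fibrillar adhesions, and in the prostate contractile genes of this kind are used by epithelium and, at high level, by the smooth muscle of the stroma.

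RND3, MYH14 and TNS1 have their promoter sequence printed here because these are the members that were higher in both resistant lines. The sequences are from RefSeq on GRCh38.p14 and read 5′ to 3′ on the strand of the gene. Of the 250 bases before the first listed start, those lying in no annotated exon are shown, and capitals mark a CArG box (the serum response factor motif) in RND3 and GC boxes in MYH14. The stretch for RND3 is chr2:150487730-150487945 on the minus strand, that for MYH14 is chr19:50203372-50203621 on the plus strand, and that for TNS1 is chr2:218010422-218010525 on the minus strand.
RND3: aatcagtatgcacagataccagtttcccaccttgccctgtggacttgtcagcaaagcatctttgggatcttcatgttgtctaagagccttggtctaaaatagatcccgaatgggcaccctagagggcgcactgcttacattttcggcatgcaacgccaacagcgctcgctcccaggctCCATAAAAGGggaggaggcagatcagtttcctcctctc
MYH14: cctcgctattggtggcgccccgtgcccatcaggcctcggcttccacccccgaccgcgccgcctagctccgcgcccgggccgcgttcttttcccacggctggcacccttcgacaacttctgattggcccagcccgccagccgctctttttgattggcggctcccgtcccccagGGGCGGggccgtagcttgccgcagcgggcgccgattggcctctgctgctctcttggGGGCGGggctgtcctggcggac
TNS1: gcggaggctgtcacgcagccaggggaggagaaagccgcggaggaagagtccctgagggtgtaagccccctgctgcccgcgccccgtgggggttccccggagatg
A promoter was matched for 9 of the 10 members, all except RND2. The window of RND3 had a GC content of 51.2%, below the median of 58.0% over 35116 promoters, whereas those of MYH14 and TNS1 had 71.6% and 76.0%. Within these windows, searched on both strands, the CArG box of RND3 lay 72 bases before the start, and ROCK2 had the other CArG box among the members. The motif was present in 1.16% of all promoters. The GC box GGGCGG was found in MYH14 at 78 and 22 bases before the start, in TNS1 at 7 bases before the start (outside the printed stretch), and in MYH9, MYH10 and ROCK1, against 42.6% of all promoters. The TEAD motif CATTCC occurred in MYH9, MYH10 and ROCK2 and in 11.9% of all promoters. Neither the AP-1 motif TGANTCA nor the CRE TGACGTCA was in a member's window, and they were in 6.57% and 1.65% of all promoters. The 3 promoters printed therefore shared no searched motif across all 3, and a match to letters is not evidence of binding. RefSeq lists 2 starts for RND3, 5 for TNS1 and 1 for MYH14, and the first listed was used. The windows of all 3 genes lie inside the annotated gene positions given below, downstream of where each gene begins. Another start may therefore serve these cells.

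RND3 (ENSG00000115963.14; GRCh38 chr2:150468195-150539011, minus strand) showed the widest span of the 10 genes. It had 2 counts in LNCaP against 568 in LN-OlapR, and 135 in C4-2B against 1062 in 2B-OlapR. After TMM scaling, which sets library sizes on the bulk of genes, these were 0.0744, 24.4, 6.60 and 51.3 normalized CPM (counts scaled to library size). LNCaP lay under the level of 3 counts that was treated as the limit of detection (0.112 CPM there), C4-2B was low, both resistant lines were higher than their parents, and 2B-OlapR was highest. In the LN pair RND3 was 327.3-fold higher, with an exact counting interval from 90.2 to 2709 because the parental value rests on 2 counts. This is the ratio of the normalized levels with no counts added. It was 7.77-fold higher in the 2B pair (exact interval 6.49 to 9.36), a log2 ratio of 2.95. Log2 ratios had 0.5 counts added to each library. Ordered by log2 ratio, RND3 stood 3rd of 15373 genes in the LN pair and at place 104 of 15527 in the 2B pair. The log2 ratio of the LN pair was 8.03, or 262.1-fold, and 7.36 when 2 counts were added, and the 2B pair minus the LN pair was -5.08 (interval from -6.89 to -3.27), and the gap came from the parental lines more than from the resistant ones. RNA from a whole culture cannot tell fewer cells with a transcript from less RNA per cell, here or at the other genes.

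RND2, a small GTPase best known from migrating neurons, was at the edge of detection in every library. Its counts were 2 in LNCaP against 6 in LN-OlapR, and 2 in C4-2B against 5 in 2B-OlapR, or 0.0744, 0.257, 0.0977 and 0.241 normalized CPM. No neighbouring lines in this order differed beyond counting error, and the gene did not pass the filter (1 CPM on average over a pair). Its ratio was 3.46-fold in the LN pair (exact interval 0.618 to 35.0) and 2.47-fold in the 2B pair (0.404 to 25.9), intervals that include both no difference and a large one. The RND1 gene was not analysed here.

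**Figure D1:**
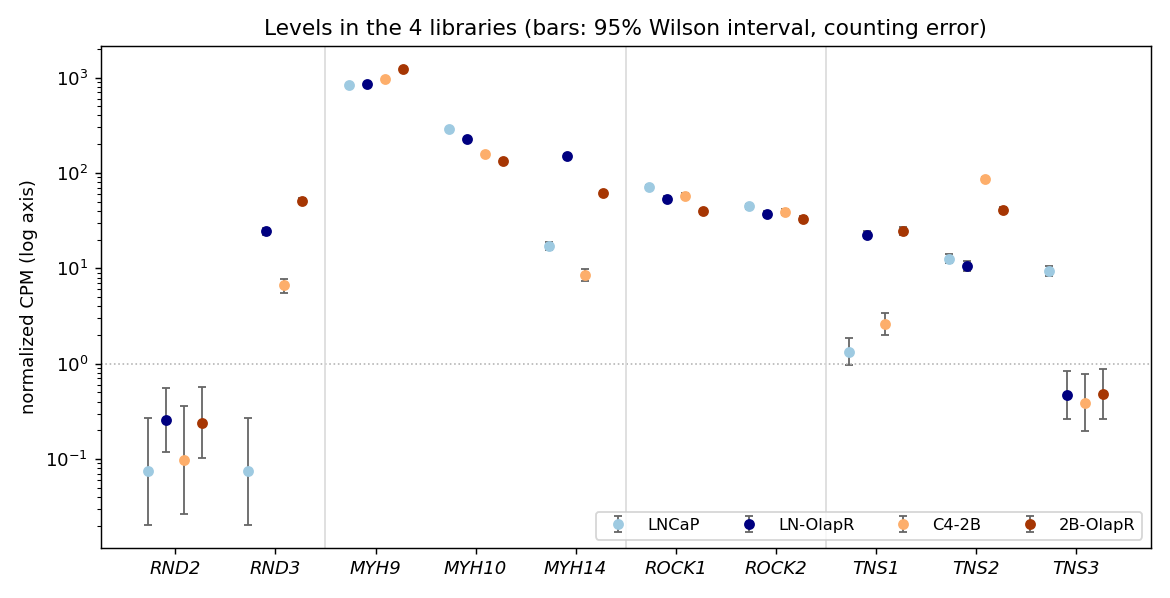
Normalized CPM on a log axis for the 10 genes in each of the 4 libraries; bars are 95% Wilson intervals of the counts and the dotted line marks 1 CPM. RND3, MYH14 and TNS1 separate the resistant lines (dark points) from the parental ones (light points), ROCK1, ROCK2 and MYH10 sit slightly lower in each resistant line than in its parent, and TNS3 is above 1 CPM only in LNCaP.

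Both ROCK kinases, effectors of the RhoA axis that RND3 works against, were slightly lower in each resistant line than in its parent. ROCK1 was at 72.0 normalized CPM in LNCaP against 53.8 in LN-OlapR, and 57.7 in C4-2B against 39.4 in 2B-OlapR. Its log2 ratio was -0.42 (-0.52 to -0.32) in the LN pair and -0.55 (-0.68 to -0.42) in the 2B pair. ROCK1 has a partial copy, ROCK1P1, with 73, 42, 42 and 30 counts in the same order of libraries, and reads shared by the 2 could have been split between them, so the ROCK1 level is uncertain to that extent. ROCK2 was at 44.5, 37.3, 39.0 and 32.8 normalized CPM in LNCaP, LN-OlapR, C4-2B and 2B-OlapR. It gave log2 ratios of -0.25 (-0.38 to -0.13) and -0.25 (-0.40 to -0.11) in the LN and 2B pairs. For both kinases LNCaP was highest and 2B-OlapR lowest, and C4-2B and LN-OlapR did not differ beyond counting error, by 0.10 (-0.01 to 0.21) for ROCK1 and 0.06 (-0.07 to 0.20) for ROCK2. Their differences between the 2 pairs also had intervals that include 0, -0.13 (-0.29 to 0.03) for ROCK1 and -0.00 (-0.20 to 0.19) for ROCK2.

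Per kilobase of the longest annotated transcript, ROCK1 and ROCK2 together summed to 13.0 normalized CPM per kb in LNCaP against 10.2 in LN-OlapR, and 10.8 in C4-2B against 8.10 in 2B-OlapR. ROCK2 made up 41.4% (39.6 to 43.1) of this sum in LNCaP against 44.3% (42.1 to 46.4) in LN-OlapR, and 43.6% (41.5 to 45.9) in C4-2B against 48.8% (46.2 to 51.3) in 2B-OlapR. The interval of 2B-OlapR lay above those of LNCaP and C4-2B, while those of LNCaP and LN-OlapR overlapped.

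The 3 heavy chains of nonmuscle myosin II behaved differently from each other. MYH14 (chr19:50188186-50310544, plus strand), the heavy chain of nonmuscle myosin IIC and a gene of epithelia, had 461 counts in LNCaP against 3525 in LN-OlapR, and 175 in C4-2B against 1277 in 2B-OlapR. These were 17.1, 151.1, 8.55 and 61.6 normalized CPM, with LN-OlapR highest, C4-2B lowest and every neighbouring step beyond counting error. MYH14 was 8.81-fold higher in the LN pair (exact interval 7.99 to 9.73) and 7.21-fold higher in the 2B pair (6.15 to 8.49), log2 ratios of 3.14 and 2.85. The ratios of the 2 pairs lay close together, with a difference of -0.29 on the log2 scale (-0.56 to -0.03) for the 2B pair minus the LN pair. The gene stood at place 94 of 15373 and 115 of 15527 by log2 ratio.

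MYH9, the heavy chain of myosin IIA, was the most abundant of the 10 genes per kilobase in every library. It was at 842.2 normalized CPM in LNCaP against 864.4 in LN-OlapR, and 961.6 in C4-2B against 1222 in 2B-OlapR. Its log2 ratio was 0.04 (0.01 to 0.06) in the LN pair, where it turned to -0.05 when libraries were scaled by their total counts, and 0.35 (0.32 to 0.37) in the 2B pair. No direction is therefore given for MYH9 in the LN pair. The 2B ratio corresponds to a 1.27-fold higher level.

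MYH10, the heavy chain of myosin IIB, went the other way. It was at 285.6 normalized CPM in LNCaP against 228.2 in LN-OlapR, and 156.0 in C4-2B against 134.8 in 2B-OlapR, each resistant line below its parent and the LNCaP pair above the C4-2B pair. The log2 ratios were -0.32 (-0.37 to -0.27) and -0.21 (-0.28 to -0.14). MYH10 overlaps NDEL1 on the other strand over 16207 bases, and NDEL1 had between 737 and 978 counts. The libraries were stranded, but whether the counting used strand is not given in the sources used here, so the part of NDEL1 reads in the MYH10 value was not tested.

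Summed per kilobase, the 3 heavy chains reached 150.8 normalized CPM per kb in LNCaP against 165.7 in LN-OlapR, and 148.6 in C4-2B against 188.1 in 2B-OlapR. MYH14 made up 1.65% (1.51 to 1.80) of this sum in LNCaP and 13.2% (12.8 to 13.6) in LN-OlapR. In C4-2B it made up 0.834% (0.719 to 0.966), and in 2B-OlapR 4.75% (4.50 to 5.01). MYH9 remained the main chain throughout, between 69.0% in LN-OlapR and 86.0% in 2B-OlapR. The MYH10 share was 24.4% in LNCaP against 17.7% in LN-OlapR, and 13.5% in C4-2B against 9.24% in 2B-OlapR. Each resistant line thus had more IIC and less IIB heavy chain transcript in the total than its parent, with IIA still the bulk.

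**Figure D2:**
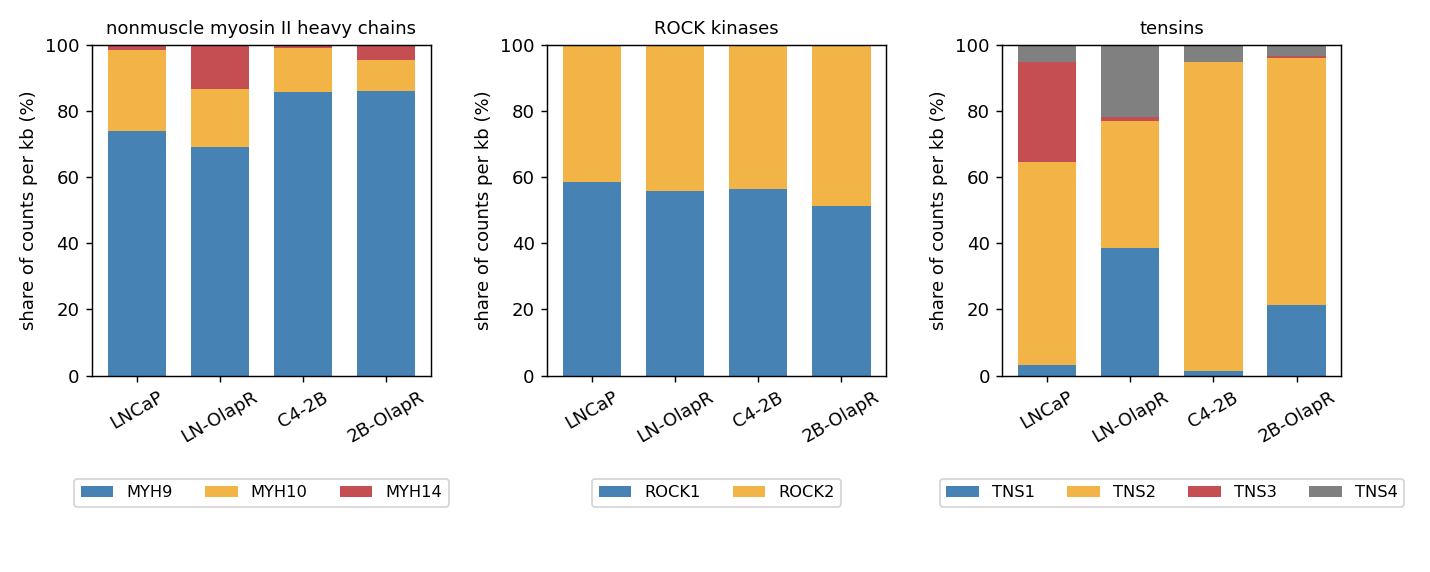
Share, in percent, of each family's summed counts per kilobase held by each gene in the 4 libraries: nonmuscle myosin II heavy chains (left), ROCK kinases (middle) and tensins (right). MYH14 takes 13.2% of the myosin heavy chains in LN-OlapR and 1.65% in LNCaP, the ROCK balance shifts little, and the leading tensin differs between lines.

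The 4 tensins had 4 different patterns. TNS1 (chr2:217799588-218033982, minus strand) encodes an actin-binding adaptor of fibrillar adhesions. It had 36 counts in LNCaP against 525 in LN-OlapR, and 53 in C4-2B against 509 in 2B-OlapR, or 1.34, 22.5, 2.59 and 24.6 normalized CPM. The resistant lines were at nearly the same level, 2B-OlapR over LN-OlapR having a log2 ratio of 0.13 (-0.05 to 0.30), and both parental lines were low. TNS1 was 16.6-fold higher in the LN pair (log2 ratio 4.05, 3.57 to 4.54) and 9.40-fold higher in the 2B pair (3.23, 2.83 to 3.64), at place 57 and place 81 of the genes by log2 ratio. The 2B pair minus the LN pair was -0.82 (-1.45 to -0.19). On the other strand an antisense gene overlaps TNS1 over 13909 bases and another overlaps MYH14 over 518 bases, and neither was analysed here.

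TNS2, a tensin with a phosphatase-like domain, was highest in C4-2B. It was at 12.6 normalized CPM in LNCaP against 10.5 in LN-OlapR, and 86.8 in C4-2B against 40.5 in 2B-OlapR, so the lines of the C4-2B background were above those of the LNCaP background. Its log2 ratio was -0.25 (-0.49 to -0.02) in the LN pair and -1.10 (-1.22 to -0.98) in the 2B pair, a difference of -0.84 (-1.11 to -0.58). On the other strand the antisense gene TNS2-AS1 overlaps TNS2 over 7470 bases, and it was lower as well, with log2 ratios of -0.24 (-0.42 to -0.06) and -0.74 (-0.94 to -0.55). How far the 2 share reads was not tested.

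TNS3, an adaptor that also binds integrin tails, was found almost entirely in LNCaP. Its counts were 253 in LNCaP against 11 in LN-OlapR, and 8 in C4-2B against 10 in 2B-OlapR, or 9.41, 0.472, 0.391 and 0.483 normalized CPM. The 3 lines other than LNCaP did not differ beyond counting error. The log2 ratio was -4.26 (-5.11 to -3.40) in the LN pair. The gene did not pass the filter in the 2B pair, where the ratio was 0.29 (-1.02 to 1.59).

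TNS4, a short tensin without the actin-binding region and the remaining member of the family, was at 0.856 normalized CPM in LNCaP against 4.89 in LN-OlapR, and 3.86 in C4-2B against 1.54 in 2B-OlapR. Its direction was opposite in the 2 pairs, with log2 ratios of 2.49 (1.85 to 3.13) and -1.31 (-1.90 to -0.72). Per kilobase, TNS2 led the tensins in LNCaP with 61.5% (57.7 to 65.1) of their sum, in C4-2B with 93.3% (92.1 to 94.4) and in 2B-OlapR with 74.7% (72.5 to 76.7). In LN-OlapR TNS1, at 38.5% (35.4 to 41.7), and TNS2, at 38.4% (34.9 to 42.1), were level, but this rests on the transcript length: with coding length they held 45.3% and 27.8%, and with no length correction 58.6% and 27.5%. TNS1 held 3.07% in LNCaP, 1.31% in C4-2B and 21.2% in 2B-OlapR. The summed tensin level was 4.08 normalized CPM per kb in LNCaP against 5.48 in LN-OlapR, and 18.6 in C4-2B against 10.8 in 2B-OlapR, so TNS1 was higher in 2B-OlapR while the family total was lower than in C4-2B.

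**Figure D3:**
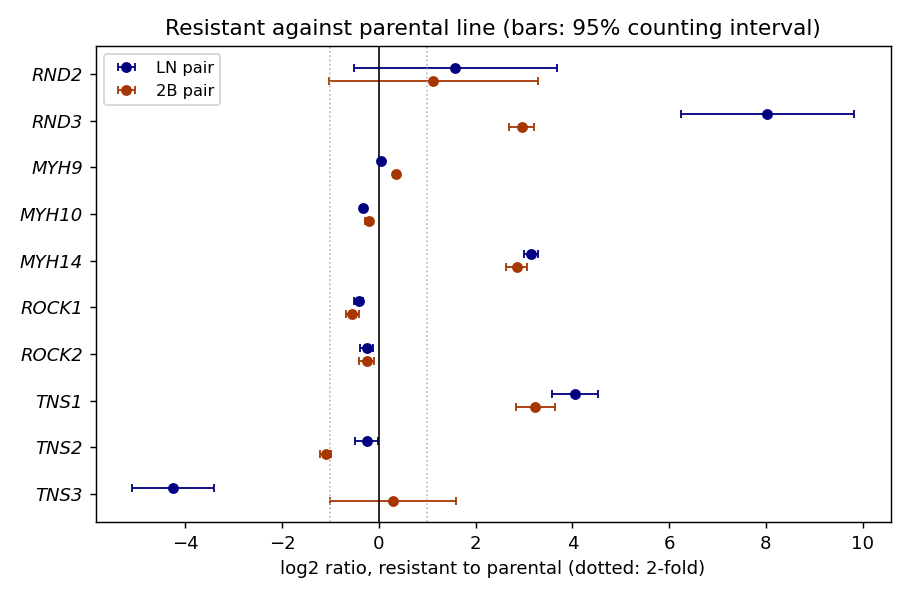
Log2 ratio of each resistant line to its parent for the 10 genes, LN pair in blue and 2B pair in brown, with 95% counting intervals; dotted lines mark 2-fold. RND3, MYH14 and TNS1 lie beyond 2-fold higher in both pairs, TNS3 is beyond 2-fold lower in the LN pair alone and TNS2 in the 2B pair alone, and RND2 has intervals that cross 0.

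Counted together, 9 members passed the filter in the LN pair and 8 in the 2B pair. In the LN pair 3 members (RND3, MYH14 and TNS1) were at least 2-fold higher, where 4.64% of all 15373 genes were, and 1 (TNS3) was at least 2-fold lower, where 4.83% were. In the 2B pair the same 3 genes were at least 2-fold higher, against 4.42% of 15527 genes, and TNS2 was lower by 2-fold or more, against 5.65%. At least 2-fold higher in both pairs were 3 of the 8 members that passed in both, against 0.836% of 14602 genes. As these 3 were chosen for that pattern, nothing is read from the count.

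With a looser limit, a counting interval above 0 in both pairs, 4 of the 8 members (RND3, MYH9, MYH14 and TNS1) were counted, against 14.1% of all genes. The count was 3 when libraries were scaled by total counts and MYH9 dropped out. As RND3, MYH14 and TNS1 were chosen for being higher in both resistant lines, nothing is read from this count either. A counting interval below 0 in both pairs was seen for MYH10, TNS2, ROCK1 and ROCK2, again 4 of 8, against 13.2% of all genes. Those 4 were the same under every scaling, pseudocount and filter tried, although for ROCK1, ROCK2 and MYH10 the difference was small. The median log2 ratio of the members that passed was -0.25 in the LN pair and 0.07 in the 2B pair, and that of all genes was -0.00 in both.

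The 2 resistant lines did not arrive at one common level, except for TNS1 and the weakly detected RND2 and TNS3. From LN-OlapR to 2B-OlapR, RND3 was higher by a log2 ratio of 1.07 (0.93 to 1.22), TNS2 by 1.94 (1.74 to 2.15) and MYH9 by 0.50 (0.47 to 0.53). MYH14 was lower, with a log2 ratio of -1.29 (-1.39 to -1.20), as were MYH10 at -0.76 (-0.82 to -0.69), ROCK1 at -0.45 (-0.58 to -0.32) and ROCK2 at -0.19 (-0.33 to -0.04).

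The parental lines were compared to show how far lines of one lineage differ without selection in olaparib. C4-2B against LNCaP shares a library with each pair above, so the values are set side by side only. RND3 was 88.7-fold higher in C4-2B than in LNCaP (exact interval 24.1 to 739.7, on 2 counts in LNCaP), and TNS2 was higher by a log2 ratio of 2.79 (2.62 to 2.95). These were 2 of the 9 members that passed, against 8.00% of 15580 genes at least 2-fold higher. TNS3 was lower in C4-2B by a log2 ratio of -4.50 (-5.49 to -3.52), and MYH14, at 8.55 against 17.1 normalized CPM, was just at the limit of 2-fold (interval of the log2 ratio -1.25 to -0.75). The 2 were counted against 7.18% of genes at least 2-fold lower. TNS1 was at 0.95 (0.34 to 1.55) and MYH10 at -0.87 (-0.93 to -0.81). In size, the difference between the parental lines was thus larger than in both resistant pairs for MYH10, TNS2 and TNS3 (for TNS3 the intervals of this comparison and the LN pair overlap), and larger than in 1 of them for RND3 and MYH9 (0.19 between the parental lines), whereas for MYH14 and TNS1 both resistant pairs showed more. ROCK1 was at -0.32 (-0.42 to -0.22) and ROCK2 at -0.19 (-0.32 to -0.06) between the parental lines. Both values were smaller in size than in the resistant pairs, but their intervals overlap those of the LN pair. The median of the 9 members was -0.19, beside -0.02 for all genes.

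The wider GTPase, myosin and adhesion pathway was read from 9 lists with 91 genes, of which 84 were in the table. In the LN pair 1 of the 81 that passed the filter was at least 2-fold higher and 5 were at least 2-fold lower, 1.23% and 6.17%, beside the 4.64% and 4.83% of all genes given above. In the 2B pair 0 of 82 were at least 2-fold higher and 4 were at least 2-fold lower, or 4.88%, beside 4.42% and 5.65% of all genes. The median log2 ratio of the listed genes was -0.04 in the LN pair and -0.02 in the 2B pair. The shares past 2-fold in the lower direction were thus near those of all genes.

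Among RHOA and related GTPases no gene reached 2-fold, and the median log2 ratio of 5 was -0.18 in the LN pair and 0.29 in the 2B pair. RHOB, an endosomal and stress-inducible relative of RhoA, was the highest in both, at 0.64 (0.57 to 0.71) and 0.69 (0.64 to 0.75), with 104.9 and 163.4 normalized CPM in LNCaP and LN-OlapR and 181.5 and 293.8 in C4-2B and 2B-OlapR. RAC1, which drives protrusion, was the lowest in both, at -0.42 (-0.48 to -0.36) and -0.05 (-0.11 to 0.02).

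The GTPase-activating proteins, among them partners of RND3, had 4 genes measured and a median of -0.07 in the LN pair and 0.10 in the 2B pair. ARHGAP35, a known binding partner of RND3, was at 0.04 (-0.02 to 0.11) in the LN pair and at 0.73 (0.67 to 0.79) in the 2B pair. ARHGAP5, its close relative, was at 0.36 (0.25 to 0.47) and -0.04 (-0.18 to 0.10). STARD13 was the lowest of the LN pair, at -0.47 (-0.87 to -0.06), and ARHGAP1 that of the 2B pair, at -0.22 (-0.30 to -0.15).

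Of the 10 guanine exchange factors of this axis, 1 reached 2-fold: ARHGEF2, a microtubule-bound activator of RhoA, at 0.42 (0.27 to 0.58) in the LN pair and -1.04 (-1.21 to -0.87) in the 2B pair. PLEKHG5 was the highest of the LN pair at 0.87 (0.44 to 1.30) and NET1 the lowest at -0.77 (-0.89 to -0.65). ARHGEF28 was the highest of the 2B pair at 0.49, on few counts (interval -0.20 to 1.18). The list median was 0.10 and -0.13 in the LN and 2B pairs.

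The myosin II light chains, which every heavy chain needs, showed nothing of the size seen for MYH14. The median of the 4 that passed in the LN pair was -0.10, from MYL6B at -0.20 (-0.34 to -0.07) to MYL6 at 0.10 (0.06 to 0.14). In the 2B pair the median of 5 was -0.29, from MYL6B at -0.79 (-0.97 to -0.60) to MYL9 at -0.02 (-0.53 to 0.49). MYL9, the smooth muscle type regulatory chain, had 34 counts in LNCaP and 2 in LN-OlapR and did not pass the filter there. An interval below 0 was found for 2 of 4 light chains in the LN pair and 4 of 5 in the 2B pair. No share of all genes was computed for a single pair, so these counts are a description only.

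Light chain kinases and phosphatase subunits had a median of -0.03 over 10 genes in the LN pair and -0.11 over 9 in the 2B pair. MYLK, the calcium-dependent light chain kinase, was the highest of the LN pair at 0.92 (0.67 to 1.16). DAPK1, a death-associated kinase that can phosphorylate the light chain, had 225 counts in LNCaP and 0 in LN-OlapR, which is at least 65.1-fold lower against 3 counts. C4-2B had 19 counts of DAPK1 against 0 in 2B-OlapR, under the filter. The myosin phosphatase targeting subunits differed from each other in the 2B pair, PPP1R12B being at 0.75 (0.58 to 0.92) and PPP1R12A at -0.59 (-0.72 to -0.47).

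In the cofilin pathway and the formins, which cut and build actin filaments downstream of RhoA, the median was 0.27 in the LN pair and 0.04 in the 2B pair over 10 genes. CFL2, the muscle type cofilin, was at 17.1 normalized CPM in LNCaP and 5.70 in LN-OlapR, a log2 ratio of -1.58 (-1.86 to -1.30), and the only one of the list past 2-fold. The cofilin phosphatase SSH3 was the highest of the LN pair at 0.82 (0.69 to 0.96) and the formin DIAPH1 that of the 2B pair at 0.61 (0.57 to 0.65). SSH1, another cofilin phosphatase, was the lowest of the 2B pair at -0.57 (-0.70 to -0.45).

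Focal adhesion partners, which work alongside the tensins, formed the longest of the lists together with the actin filament proteins. Their median was -0.21 in the LN pair and -0.18 in the 2B pair over 16 genes each, with 9 of the 16 having an interval below 0 in each pair. The share of all genes with such an interval in a single pair was not computed, so nothing is read from that count. PARVA, the parvin that joins integrin-linked kinase to actin, had 294 counts in LNCaP and 0 in LN-OlapR, at least 85.0-fold lower against 3 counts. In the 2B pair PARVA was instead higher, with 381 and 638 counts and a log2 ratio of 0.72 (0.54 to 0.91). ILK, the integrin-linked kinase itself, was at -1.07 (-1.19 to -0.94) in the LN pair and -0.15 (-0.28 to -0.02) in the 2B pair. FERMT2, the integrin activator kindlin-2, was at -0.51 (-0.79 to -0.23) in the LN pair and -1.67 (-2.01 to -1.34) in the 2B pair. TNS4 was the only one at least 2-fold higher in the LN pair and was, with FERMT2, 1 of 2 that were lower by 2-fold or more in the 2B pair.

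Actin filament proteins that passed the filter included none past 2-fold, with medians of 0.26 over 15 genes in the LN pair and 0.12 over 16 in the 2B pair. ENAH, an actin elongation factor, was the highest of the LN pair at 0.88 (0.82 to 0.95). The lowest were TAGLN at -0.53 (-0.88 to -0.18) in the LN pair and TPM2, on few counts, at -0.70 (-1.59 to 0.19) in the 2B pair. Under the filter in the LN pair, TPM2 had 4 counts in LNCaP and 30 in LN-OlapR, a log2 ratio of 2.97 (1.54 to 4.39).

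The list of the serum response factor (SRF) and YAP axis, transcription regulators that respond to actin tension, had a median of -0.35 in the LN pair and 0.08 in the 2B pair over 7 genes. SRF was the highest of the LN pair at 0.37 (0.27 to 0.48), and the YAP target CCN1 was the highest of the 2B pair at 0.92 (0.61 to 1.23). AMOTL2, a YAP-binding protein and YAP target, was lowest in the LN pair at -1.23 (-1.86 to -0.60). WWTR1, the YAP relative TAZ, was lowest in the 2B pair at -2.14 (-3.03 to -1.26), from 54 counts in C4-2B to 12 in 2B-OlapR.

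**Figure D4:**
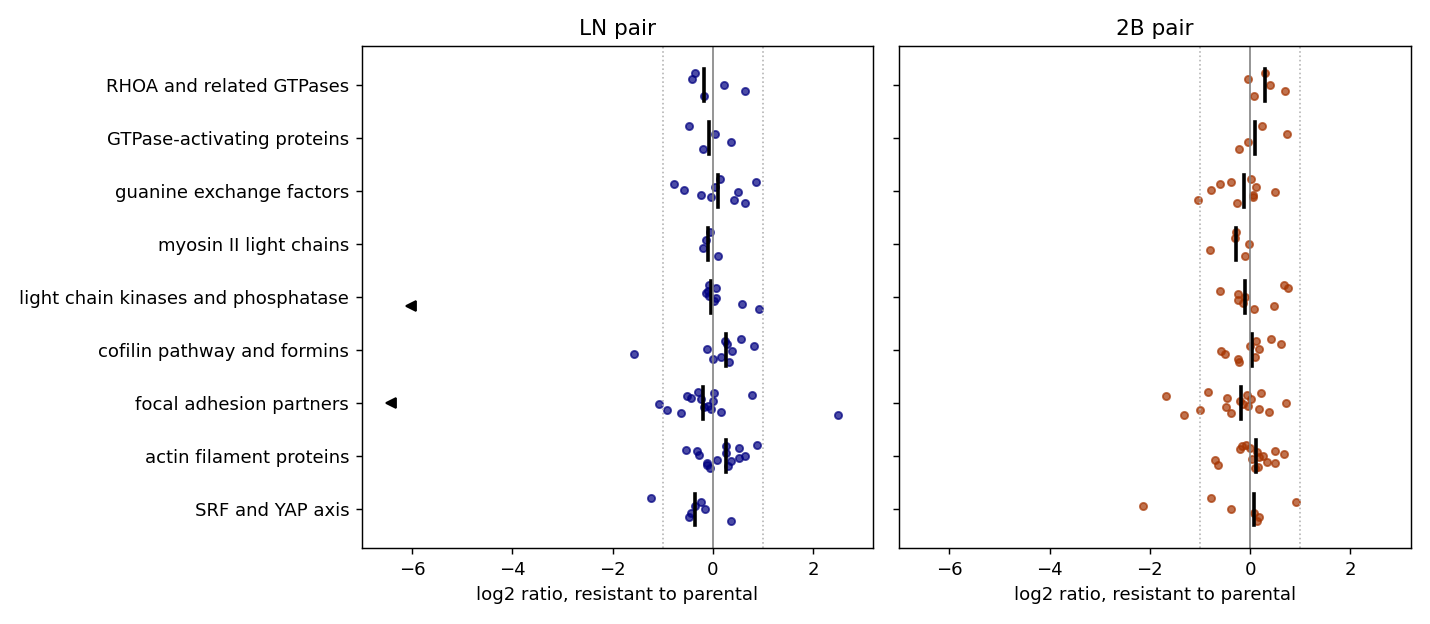
Log2 ratio of resistant to parental line for each listed pathway gene that passed the filter (points), by list, in the LN pair (left) and the 2B pair (right); black bars are list medians, dotted lines mark 2-fold, and triangles are bounds for genes with 0 counts in LN-OlapR. Most points lie within 2-fold; the exceptions include TNS4, CFL2, DAPK1 and PARVA in the LN pair and FERMT2 and WWTR1 in the 2B pair.

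As for the identity of the cells, all 8 luminal prostate markers were present, summing to 3799 normalized CPM in LNCaP against 3834 in LN-OlapR, and 3127 in C4-2B against 2759 in 2B-OlapR. Of 3 basal markers only KRT14 was in the table, at 0.557 CPM or less. Smooth muscle and stromal markers had 6 of 11 genes listed, summing to 22.9, 21.3, 20.7 and 10.8 normalized CPM in LNCaP, LN-OlapR, C4-2B and 2B-OlapR. The collagen COL1A1 accounted for a large part of these sums, at 15.2 CPM in LNCaP against 8.23 in LN-OlapR, and 16.1 in C4-2B against 7.14 in 2B-OlapR, while other members went the other way in the LN pair. The median log2 ratio of those that passed was 0.65 over 4 genes in the LN pair and -0.73 over 3 in the 2B pair. PDGFRB, a receptor of stromal cells, was at 0.707 CPM in LNCaP and 2.06 in LN-OlapR. The smooth muscle myosin MYH11 was between 1.19 and 1.50 CPM, and the smooth muscle actin ACTA2 was at 4.65 CPM in LNCaP, 9.09 in LN-OlapR and 0.338 or less in both lines of the C4-2B background. The part of these markers in the results was not tested. Endothelial and immune markers had 2 of 5 listed, at 4.78 to 16.4 CPM in sum. Library totals ranged from 19950537 to 26394267 counts.

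The genes whose levels over the 4 libraries were most like those of RND3, MYH14 and TNS1 were found by the distance between log2 levels centred on their mean, over 9884 genes whose mean level reached 10 normalized CPM. With only 4 points, 1 from each line, many genes can have a like pattern by their order alone. The distance was not scaled to the span of a gene. That of RND3 was wide, from a centred level of -5.82 in LNCaP, which rests on 2 counts, to 3.28 in 2B-OlapR. How far the distances to RND3 follow from this span was not tested. For RND3 even the nearest genes were not near, among them S1PR3 (a sphingosine 1-phosphate receptor) at 2.89, KLK3 (prostate-specific antigen) at 3.10 and CADPS2 (a secretion factor) at 3.19. Their common trait was a low LNCaP value. Of them only S1PR3 had its highest level in 2B-OlapR, at 1.49, 25.0, 15.8 and 146.6 normalized CPM in LNCaP, LN-OlapR, C4-2B and 2B-OlapR. KLK3 and CADPS2 were below C4-2B in 2B-OlapR, by log2 ratios of -0.37 and -0.73.

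By this unscaled distance MYH14 and TNS1 had closer company. For MYH14 these were PPP2R2C, a regulatory subunit of protein phosphatase 2A, at a distance of 1.29, FAXDC2 at 1.47, the secreted semaphorin SEMA3C at 1.73, the protocadherin PCDHGC3 at 1.78 and TNS1 itself at 1.82. PPP2R2C was at 12.9 normalized CPM in LNCaP against 66.0 in LN-OlapR, and 13.0 in C4-2B against 41.2 in 2B-OlapR. For TNS1 they included TMEM179 at 1.35, PLXDC2 at 1.68, LONRF2 at 1.76 and the receptor phosphatase PTPRK at 1.78. TMEM179 was at 2.46, 21.9, 6.06 and 17.9 normalized CPM in the same order of libraries. Each of these genes was higher in both resistant lines than in the parental line, which a small distance to these patterns makes likely by construction.

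**Figure D5:**
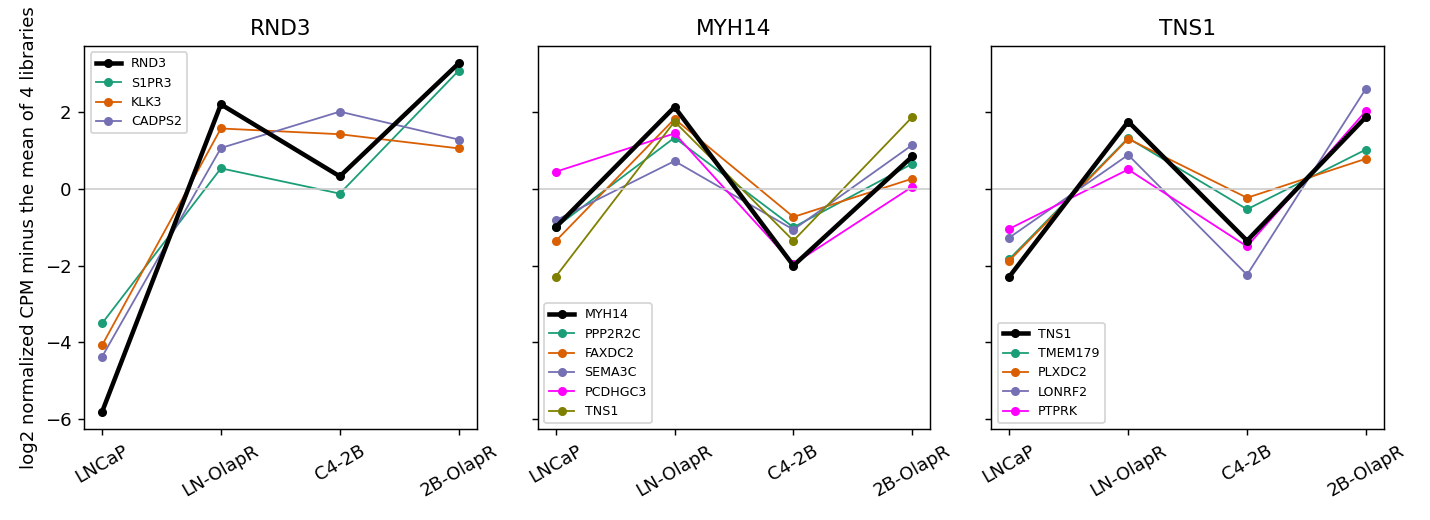
Log2 normalized CPM minus the mean of the 4 libraries, by library, for RND3, MYH14 and TNS1 (black) and genes among the 5 nearest to each (colours). The neighbours of MYH14 and TNS1 follow the same zigzag from parental to resistant line, whereas those of RND3 share its low LNCaP value but, apart from S1PR3, not the size of its step from C4-2B to 2B-OlapR.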

How the data were processed

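Total RNA from 4 cell lines was made into stranded mRNA libraries, 1 library per line. The authors deposited estimated counts per gene, not scaled between libraries, and 46.0% of the values were not whole numbers. STAR, Partek and the build GRCh38 (hg38) are named in the submitters' processing notes, with no version. The tool that made the counts, and whether it used strand, are not given in the sources used here. Every gene summed to at least 10.0 over the libraries, and of 73 repeated symbols the first row was used. Values were rounded. Scaling used TMM (edgeR 4.0.16, R 4.3.3), with other steps in Python 3.11.15. Log2 ratios used a pseudocount of 0.5 counts, and a gene entered a pair when its mean there was 1 normalized CPM or more. A 2-fold ratio was the limit for counting a gene. Intervals for ratios were normal intervals of the log2 ratio from the 2 counts, or exact binomial intervals of the ratio where called exact. Levels had Wilson intervals. Shares had normal intervals on the log odds (the log of the share over the rest), from the counts. Counts of 3 or fewer were taken as the detection limit. Totals ran from 19950537 to 26394267 counts. Lengths, positions and overlaps came from GENCODE release 29 on GRCh38 and promoters from RefSeq on GRCh38.p14.

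The members and the lists were chosen with earlier results of these data known. The genes named were all members, TNS4, list genes past 2-fold in either pair, the highest and lowest of each list in each pair, and the 5 nearest patterns. Overlapping genes and markers of cell types were named beside the results they touch. Some genes that meet the rule are not reported here. With 1 library per line no model was fitted and no p-value was computed. The ratio step was checked on simulated counts. Alternatives were total counts, DESeq2 1.42.0 size factors, upper quartile factors, a pseudocount of 2 counts, minimum means of 0.1 and 10 CPM, and other length corrections.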

Additional observations from a re-analysis of the deposited data

Results flagged for a closer look

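Under TMM scaling, none of the 10 members was in opposite directions in the 2 pairs with both counting intervals clear of 0. When libraries were scaled by total counts, MYH9 was at -0.05 in the LN pair and 0.30 in the 2B pair. Of the other genes read, 8 are given here. In each, under TMM scaling, the direction in the LN pair was opposite to that in the 2B pair. Whether the pairs differ beyond the spread between cultures was not tested, as each line has 1 library. The log2 ratio was 2.49 in the LN pair and -1.31 in the 2B pair for TNS4. For PARVA it was -6.41 or less, the bound set by 3 counts, and 0.72. In the pathway lists the values were 0.42 and -1.04 for ARHGEF2, 0.38 and -0.57 for SSH1, 0.88 and -0.08 for ENAH, and 0.10 and -0.11 for MYL6, in the LN and 2B pairs. Scaling by total counts shifted log2 ratios of the LN pair by a median of -0.084, and upper quartile factors shifted those of the 2B pair by 0.026. The near ends of the intervals, 0.06 for MYL6 in the LN pair and -0.01 for ENAH in the 2B pair, are smaller in size than these shifts. The opposite directions of MYL6 and ENAH therefore depend on the scaling. Of the markers of other cell types, the macrophage and lysosome marker CD68 was at 3.59 and -0.94, and PDGFRB, a receptor of stromal cells, at 1.52 and -0.73.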

How the results depend on the processing

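With 1 library per line no replicate could be left out, and no fit over both pairs was run. Of 30 member ratios each, all 30 kept their direction and moved by less than counting error under DESeq2 size factors, upper quartile factors and a pseudocount of 2 counts. Under scaling by total counts 27 did, MYH9 in the LN pair reversed to -0.05, and MYH9 in the 2B pair moved to 0.30 and MYH10 in the LN pair to -0.41. With a minimum mean of 10 CPM the count of members at least 2-fold lower in the LN pair was 0, and that of members at least 2-fold higher in C4-2B than in LNCaP was 1, as TNS3 and RND3 no longer passed the filter. With the coding length, and with no length correction, the MYH14 share was 1.45% and 1.50% in LNCaP, 11.8% and 12.2% in LN-OlapR, and 4.20% and 4.34% in 2B-OlapR. The ROCK2 share was then 37.6% and 38.2% in LNCaP, 40.4% and 41.0% in LN-OlapR, 39.8% and 40.4% in C4-2B, and 44.8% and 45.4% in 2B-OlapR. The order of the lines in the MYH14 share was kept. For the ROCK2 share the order could not change, because another length alters the ratio of ROCK2 to ROCK1 equally in every library. For the tensins, length choices added after seeing the data moved TNS1 in 2B-OlapR from 21.2% to 29.8% and 36.6%, and TNS1 then led TNS2 in LN-OlapR. Depth limits RND2 in every line, RND3 in LNCaP and TNS3 outside LNCaP.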
